A study of Mus musculus domesticus and Mus musculus domesticus x Mus musculus castaneus and Mus musculus castaneus with 10 samples.

Results

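The nucleus encodes most protein subunits of the mitochondrial respiratory chain and of ATP synthase, and the levels of these genes were examined in stem cells of the CAST strain. Members were chosen by symbol: protein-coding genes whose names start with Ndufa, Ndufb, Ndufc, Ndufs or Ndufv (complex I), Sdha, Sdhb, Sdhc or Sdhd (complex II), Uqcr (complex III), Cox4 to Cox8 (complex IV) or Atp5 (complex V, the ATP synthase), with assembly factors left out. In the mouse annotation 86 genes met this rule, and 79 of them were among the 26808 genes analysed: 37 in complex I, 4 in complex II, 8 in complex III, 16 in complex IV and 14 in complex V. The other 7, Atp5g1, Atp5l, a second gene named Atp5o, Atp5s, Cox5b, Cox7b2 and Ndufs3, were not analysed here. Symbols set the complex, so Ndufa4, now usually counted with complex IV, stayed with complex I, and Cox7a2l, a factor that joins complexes III and IV into supercomplexes, stayed with complex IV.

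The study compared gene expression between mouse subspecies in pluripotent stem cells. The data described here are 2 libraries, replicates 1 and 2, from induced pluripotent stem cells of CAST/EiJ, a strain derived from Mus musculus castaneus. The line was made from embryonic fibroblasts with retroviral vectors carrying Oct4, Sox2 and Klf4, was kept on irradiated mouse embryonic fibroblast feeders, and was depleted of feeders before RNA was taken. Libraries from 129S6/SvEv stem cells and from 129CAS hybrid stem cells were not analysed here, so no difference between strains or alleles is given. Nothing in the sample descriptions says that the replicates came from separate cultures, and each has its own batch entry, so batch and replicate cannot be told apart. With 1 library on each side, a difference between replicates compares those libraries and not conditions, and it has no replicate check and no p-value.

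The libraries held 14460393 and 13728098 counts on genes in replicates 1 and 2. A gene with 3 counts, used as the floor of detection, had 0.207 and 0.219 counts per 1000000 (CPM). Nanog and Dppa5a were on the list of pluripotent stem cell markers but were not analysed here. The other 9 markers were all detected, with a summed level of 4463 CPM in replicate 1 and 3733 CPM in replicate 2. Among them Klf4 (4813 and 2018 counts) and Esrrb (13064 and 7635) were higher in replicate 1, and Pou5f1 (7910 and 10033), which encodes Oct4, in replicate 2. Of 12 markers of embryonic fibroblast feeders, 7 were at least 2-fold higher in replicate 1, beside 4.98% of all genes, and none in replicate 2, beside 4.13%. The list summed to 3485 and 1384 CPM, with Twist2 at 3 and 2 counts. In bulk RNA, fewer cells of a type and less RNA per cell cannot be told apart.

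Oxidative phosphorylation couples electron transfer to the making of ATP. Complex I (NADH dehydrogenase) and complex II (succinate dehydrogenase) feed electrons to ubiquinone, complex III passes them to cytochrome c, complex IV (cytochrome c oxidase) hands them to oxygen, and the ATP synthase uses the proton gradient that complexes I, III and IV build. A few core subunits are made from the mitochondrial genome, and the nuclear genes are known for broad expression in nearly all tissues. Some subunits of complex IV exist as paralogs used in different tissues or under different oxygen supply, and mouse pluripotent cells are known to use respiration together with glycolysis.

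The sequences below are shown because the largest differences between libraries fell on paralogs, and their letters show how far a read can separate each pair. They are coding sequences of the principal transcripts in GENCODE M21 on GRCm38, which is a C57BL/6J reference and not CAST sequence, printed 5′ to 3′ on the coding strand. Capitals mark bases that differ from, or have no counterpart in, the partner when the codons are aligned.

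The first pair is Ndufa4, a small subunit first assigned to complex I, and Ndufa4l2, its paralog known as a target of the hypoxia response.
Ndufa4: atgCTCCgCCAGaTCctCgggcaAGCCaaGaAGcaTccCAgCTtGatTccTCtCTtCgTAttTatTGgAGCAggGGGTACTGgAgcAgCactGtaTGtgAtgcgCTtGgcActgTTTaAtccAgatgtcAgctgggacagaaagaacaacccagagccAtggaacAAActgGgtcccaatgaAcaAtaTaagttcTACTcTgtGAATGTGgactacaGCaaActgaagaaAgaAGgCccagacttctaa
Ndufa4l2: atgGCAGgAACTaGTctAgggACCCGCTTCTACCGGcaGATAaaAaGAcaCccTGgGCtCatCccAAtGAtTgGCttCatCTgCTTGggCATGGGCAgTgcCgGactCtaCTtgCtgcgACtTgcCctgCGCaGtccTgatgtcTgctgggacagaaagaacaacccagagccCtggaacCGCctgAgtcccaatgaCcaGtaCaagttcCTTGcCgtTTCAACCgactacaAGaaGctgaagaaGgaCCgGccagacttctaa
Ndufa4 lies at chr6:11900292-11907497 on the minus strand, and Ndufa4l2 at chr10:127514967-127517154 on the plus strand. The proteins have 82 and 87 residues and share 51 of 87 aligned positions (58.6%). The longest run of identical bases was 28.

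Cox7a1 is known as the heart and skeletal muscle form of its subunit, and Cox7a2 as the form of most other tissues.
Cox7a1: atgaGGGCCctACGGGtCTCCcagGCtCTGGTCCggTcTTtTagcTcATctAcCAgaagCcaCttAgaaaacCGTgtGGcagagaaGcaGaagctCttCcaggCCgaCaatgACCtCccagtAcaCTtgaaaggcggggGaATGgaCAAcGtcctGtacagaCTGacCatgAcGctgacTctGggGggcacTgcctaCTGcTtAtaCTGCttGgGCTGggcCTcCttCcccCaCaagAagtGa
Cox7a2: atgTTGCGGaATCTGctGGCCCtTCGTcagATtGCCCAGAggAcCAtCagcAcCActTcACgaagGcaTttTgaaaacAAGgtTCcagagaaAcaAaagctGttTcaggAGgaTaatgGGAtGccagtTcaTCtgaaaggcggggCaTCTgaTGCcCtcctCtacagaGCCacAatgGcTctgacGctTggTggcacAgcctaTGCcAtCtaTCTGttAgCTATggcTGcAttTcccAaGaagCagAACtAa
Cox7a1 lies at chr7:30184144-30186078 on the plus strand, and Cox7a2 at chr9:79755361-79759878 on the minus strand. Their proteins of 80 and 83 residues were identical at 55.4% of aligned positions, and the longest identical run was 12 bases.

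Cox6b1 is the common form of the subunit that helps complex IV form a dimer, and Cox6b2 is known from testis.
Cox6b1: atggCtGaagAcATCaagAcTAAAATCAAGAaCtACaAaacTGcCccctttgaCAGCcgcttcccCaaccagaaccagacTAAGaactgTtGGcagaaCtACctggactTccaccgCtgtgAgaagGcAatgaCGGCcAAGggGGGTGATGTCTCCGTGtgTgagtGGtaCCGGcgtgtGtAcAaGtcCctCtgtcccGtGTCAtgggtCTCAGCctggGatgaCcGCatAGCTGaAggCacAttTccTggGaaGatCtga
Cox6b2: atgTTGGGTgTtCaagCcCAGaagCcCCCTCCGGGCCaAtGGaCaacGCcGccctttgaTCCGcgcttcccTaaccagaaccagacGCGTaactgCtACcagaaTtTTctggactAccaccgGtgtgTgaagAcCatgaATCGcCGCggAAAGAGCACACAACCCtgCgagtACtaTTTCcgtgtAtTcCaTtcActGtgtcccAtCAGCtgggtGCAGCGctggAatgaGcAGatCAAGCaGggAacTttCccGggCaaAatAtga
Cox6b1 lies at chr7:30616861-30626151 and Cox6b2 at chr7:4751792-4753094, both on the minus strand. Identity was 53.4% between proteins of 86 and 88 residues, with a longest identical run of 14 bases. Identical runs in all pairs printed here were shorter than the 75-base stretches used to ask which members share sequence with another gene.

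The 79 genes were highly expressed as a group. They took 229971 of the counts of replicate 1, or 1.59% (95% Wilson interval 1.584 to 1.597), and 244083 of those of replicate 2, or 1.78% (1.771 to 1.785), a mean of 1.68% ± 0.133 (SD, n = 2). These intervals cover counting error only, and the shares of the libraries lie outside each other's interval. Levels between genes were compared as transcripts per 1000000 (TPM), that is counts divided by the length of the longest annotated transcript and scaled to a fixed sum. On that scale the members made up 3.42% and 3.65% of all transcripts in replicates 1 and 2, and the median member stood at 275 TPM ± 15.8 (SD, n = 2). By comparison, the median of the 13117 protein-coding genes with at least 10 counts over both libraries was 20.0 TPM, and 75 of the 79 members lay above it. In the top 10% of those genes were 57 members, and 8 had means of at least 1000 TPM.

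**Figure D1:**
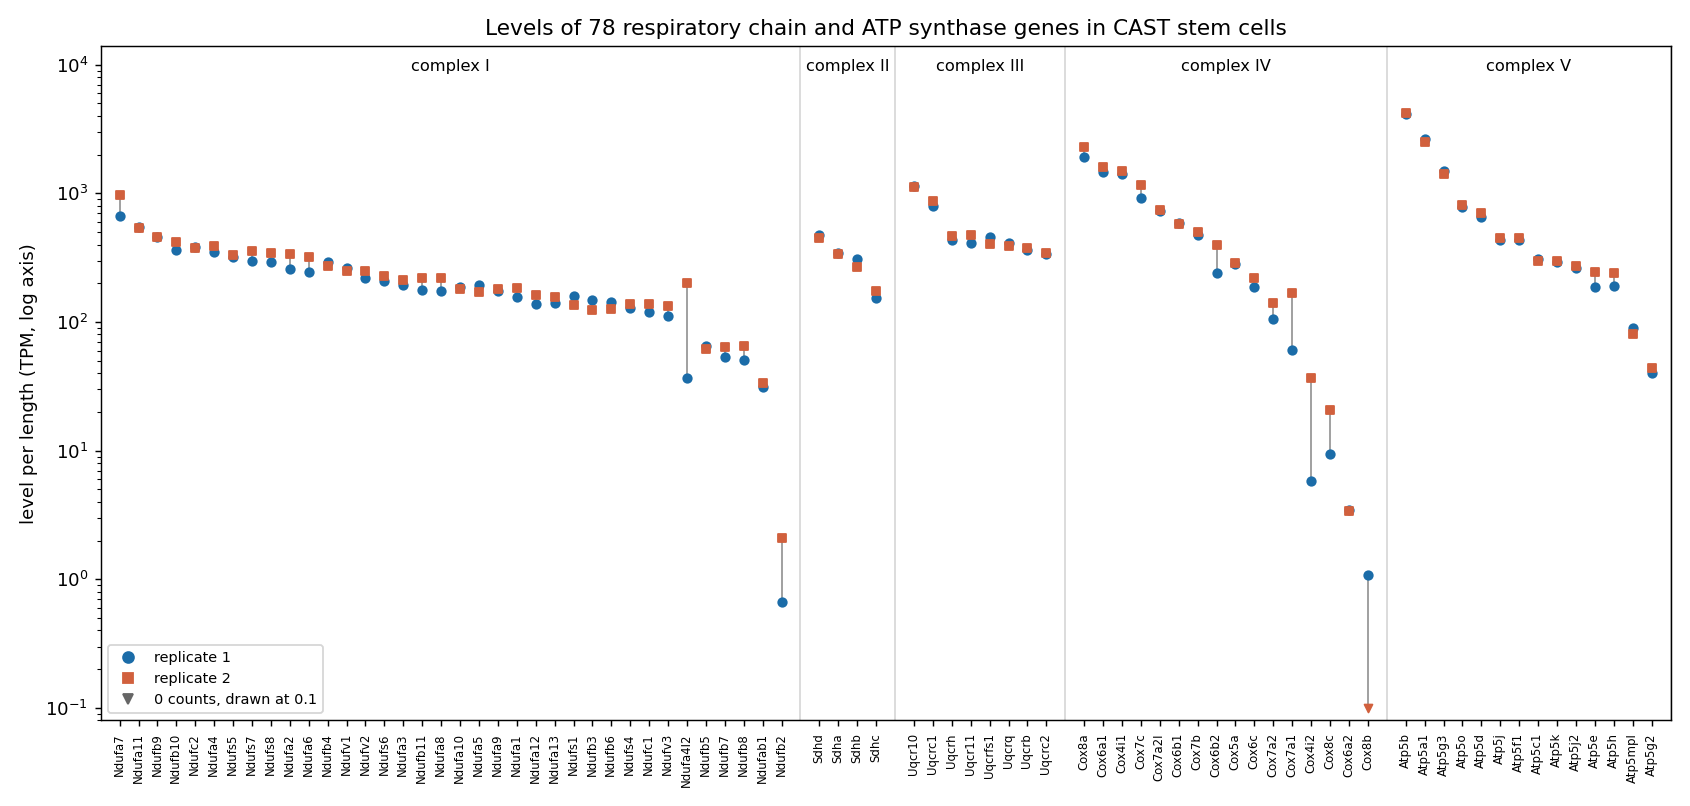
Level of each of 78 of the 79 genes in TPM (log axis) in replicate 1 (circles) and replicate 2 (squares) of CAST stem cells, grouped by complex and ordered by mean level within it. Most members have means between 100 and 1000 TPM, and Atp5b and Atp5a1 stand highest. Among genes with counts in both libraries the gaps are widest at Ndufa4l2, Cox7a1, Cox4i2 and Ndufb2. Cox8b has 0 counts in replicate 2, drawn as a triangle near the foot of the axis, so the length of its gap has no meaning.

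Complex V held the largest share of counts of the 5 complexes, 0.755% in replicate 1 and 0.811% in replicate 2 (mean 0.783% ± 0.0395, SD, n = 2). Complex I followed with 0.353% ± 0.0406, complex IV with 0.263% ± 0.0355, complex III with 0.196% ± 0.0135 and complex II with 0.0895% ± 0.0035. Without Atp5a1 and Atp5b, complex V held 0.235% ± 0.0178, below complexes I and IV. Per length the order was another one. The median member of complex III had 429 TPM ± 6.03, that of complex V 372 ± 0.472, of complex II 315 ± 16.6, of complex IV 301 ± 57.4 and of complex I 200 ± 19.8. Complexes II and IV differed by less than the SD of complex IV. With the length of the principal transcript in place of the longest, complex V (548 TPM) and complex IV (464) came before complex III (446), complex II (282) and complex I (179). Complex I thus had the lowest median under both lengths, and the order of the others turned on the length used. It also turned on the paralogs included: without 6 alternative isoforms named below, complex IV had a median of 658 TPM by the longest transcript.

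Within complex V, the F1 head carries catalysis. Atp5b, the catalytic beta subunit, had 40610 and 41999 counts in replicates 1 and 2, or 4133 and 4183 TPM. Atp5a1, the alpha subunit beside it, had 36518 and 35435 counts, or 2663 and 2529 TPM. By the longest transcript these were the highest members in both libraries. Atp5b ranked 10th and Atp5a1 37th by TPM among all genes of the table, and together they held 33.5% and 31.7% of all the members' counts. The head contains several alpha and beta subunits for each central stalk subunit gamma, encoded by Atp5c1, which had 309 and 296 TPM. The Atp5b level was thus 13.4 and 14.1 times that of Atp5c1, and the Atp5a1 level 8.61 and 8.54 times. With the union of exons as length, the Atp5b ratio was 6.64 and 7.03, and Atp5b lay below Atp5a1, at 0.823 and 0.877 of its level. Atp5d, the delta subunit of the central stalk, had 654 and 706 TPM, and Atp5e, the epsilon subunit, 186 and 246 TPM.

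Peripheral stalk genes Atp5o, Atp5f1, Atp5j and Atp5h had means between 215 and 801 TPM. Among genes of the proton-carrying c ring, Atp5g3 was the third highest member of the complex, with 1485 and 1411 TPM, whereas Atp5g2 had 39.9 and 43.8 TPM. Atp5g3 therefore made up 97.4% and 97.0% of the TPM of the pair, with Atp5g1 not analysed here. Atp5mpl, a small membrane subunit, had 89.2 and 81.1 TPM. By mean TPM, Atp5g2, Atp5mpl and Atp5h were the 3 lowest of the complex, the last with 192 and 238 TPM, close to Atp5e.

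Complex I combines core subunits that carry the flavin and iron-sulfur centers with many accessory subunits. The 30 accessory genes other than Ndufa4l2 had a median of 179 TPM ± 5.15 (SD, n = 2). Ndufa7 was the highest of complex I, at 672 and 966 TPM, followed by Ndufa11 at 548 and 535 TPM and Ndufb9 at 458 and 456 TPM. Ndufb8 had 50.7 and 64.8 TPM, and Ndufab1, the mitochondrial acyl carrier protein, 31.3 and 33.7 TPM. Ndufb2 was far below the rest, with 15 and 48 counts, or 0.67 and 2.1 TPM. Its length of 4371 bases was the same for the longest and the principal transcript. For 8 members, Ndufa4, Ndufb5, Ndufb7, Ndufb8, Cox5a, Cox6c, Atp5e and Atp5j2, the longest transcript was at least 2 times as long as the principal one. Ndufb7 showed the widest change, with a mean of 58.7 TPM by the longest transcript and 361 TPM by the principal one, and Cox6c moved from 204 to 724 TPM. Ndufb8 moved from 57.7 to 157 TPM, so its place among the 3 lowest of complex I rests on the longest transcript.

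All 4 genes of complex II, the enzyme shared with the citric acid cycle, were well expressed. Sdhd, a membrane anchor, had 478 and 446 TPM. Sdha, the flavoprotein, had 343 and 338 TPM. Sdhb, the iron-sulfur subunit, had 311 and 268 TPM, and Sdhc, the other anchor, 153 and 173 TPM. The range from highest to lowest was narrow beside that of complexes I, IV and V.

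In complex III, Uqcr10, a small subunit, was highest with 1135 and 1120 TPM. Uqcrc1 and Uqcrc2, the core proteins, had 796 and 868 TPM and 338 and 342 TPM, a ratio of 2.36 and 2.54 in replicates 1 and 2. Uqcrfs1, the Rieske iron-sulfur protein, had 462 and 402 TPM. Uqcrh, the hinge protein, had 436 and 465 TPM, Uqcrq 411 and 387 TPM, and Uqcrb, which takes part in ubiquinone binding, 360 and 377 TPM. By the longest transcript Uqcrc2 had the lowest mean of the complex, and by the union of exons Uqcrb lay below it.

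In complex IV, Cox8a had 1911 and 2305 TPM, Cox6a1 had 1478 and 1589 TPM, and Cox4i1 had 1421 and 1490 TPM. These are the forms used by most tissues. The 10 members that are not alternative isoforms had a median of 658 TPM ± 3.26 (SD, n = 2). Of the other 6, Cox8b, known from heart and muscle, had 2 counts in replicate 1 and 0 in replicate 2. Both values are at or under the floor of 3 counts per library, so no fold is given. Cox6a2, the heart and muscle form, had 12 counts in each library, or 3.44 and 3.37 TPM. Cox8c, known from testis, had 22 and 50 counts, or 9.37 and 20.8 TPM.

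Within 7 paralog families 1 gene gave most of the level in both libraries, to a different extent. Cox6a1 gave 99.8% of its family's TPM in each library. Cox8a gave 99.5% and 99.1%, and Cox4i1 99.6% and 97.6%. In the Cox7a family Cox7a2l gave 81.4% and 70.4%, Cox7a2 11.8% and 13.5%, and Cox7a1 6.76% and 16.2%. Cox7a2 thus stood above Cox7a1 in replicate 1, with 105 against 60.3 TPM, and below it in replicate 2, with 141 against 169 TPM. Cox6b1 gave 71.3% and 59.2% of its pair, the remainder being Cox6b2. Ndufa4 gave 90.5% and 65.9%, the remainder being Ndufa4l2, and this family moved the most between libraries.

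**Figure D2:**
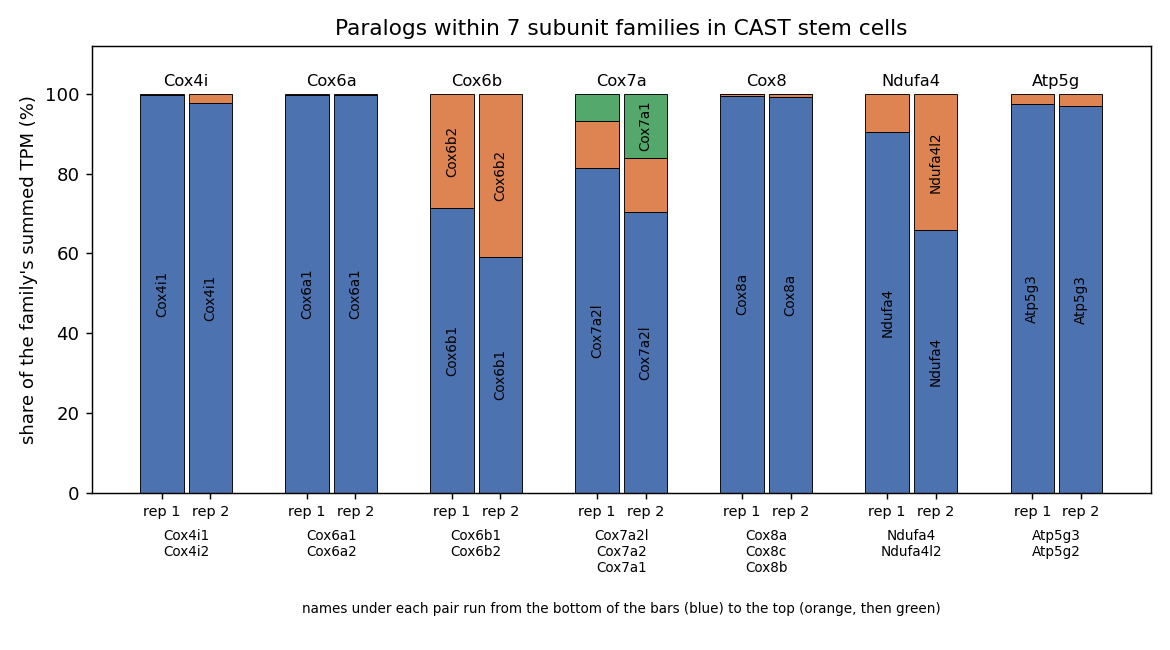
Share of each family's summed TPM (%) that each paralog takes, as stacked bars starting at 0, in replicate 1 (left) and replicate 2 (right) for 7 subunit families, with the paralogs named under each pair. The common form fills nearly the whole bar in Cox4i, Cox6a, Cox8 and Atp5g, whereas Ndufa4l2 takes 9.49% of its family in replicate 1 and 34.1% in replicate 2.

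The libraries were then compared gene by gene. Each ratio is log2 of replicate 1 over replicate 2 in CPM plus 0.5, with library sizes adjusted by TMM factors (trimmed mean of M values) of 1.02 and 0.980, so a negative ratio means a higher value in replicate 2. Over 78 members with at least 10 counts in total the median was −0.26, and 72 were higher in replicate 2 (92.3%). Among all 13824 genes with that many counts, 49.6% were higher in replicate 2, and the median was 0.00. Within 0.25 of 0 lay 38 of 78 members (48.7%), beside 41.6% of all genes. At least 2-fold apart were 5 members (6.41%), all higher in replicate 2, beside 9.11% of all genes in either direction and 4.13% higher in replicate 2. No member was 2-fold higher in replicate 1, beside 4.98% of all genes.

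These directions depended on scaling. TPM scaling moved the median ratio of all genes to 0.16, and 54 of 78 members (69.2%) were then higher in replicate 2, beside 35.2% of all genes. Relative to the median of all genes, the members' median was −0.26 with TMM factors and −0.25 with TPM scaling. By complex the median ratio was −0.31 in complex I, −0.11 in complex II, −0.21 in complex III, −0.40 in complex IV and −0.20 in complex V. Without its alternative isoforms, complex IV had a median of −0.25 over 10 members. All 15 members tested in complex IV and all 14 in complex V were higher in replicate 2 with TMM factors, as were 33 of 37 in complex I, 7 of 8 in complex III and 3 of 4 in complex II. With TPM scaling the medians were −0.15, 0.06, −0.04, −0.24 and −0.04 in the same order, so that of complex II changed sign. Higher in replicate 2 were then 25, 1, 5, 13 and 10 members of complexes I to V.

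**Figure D3:**
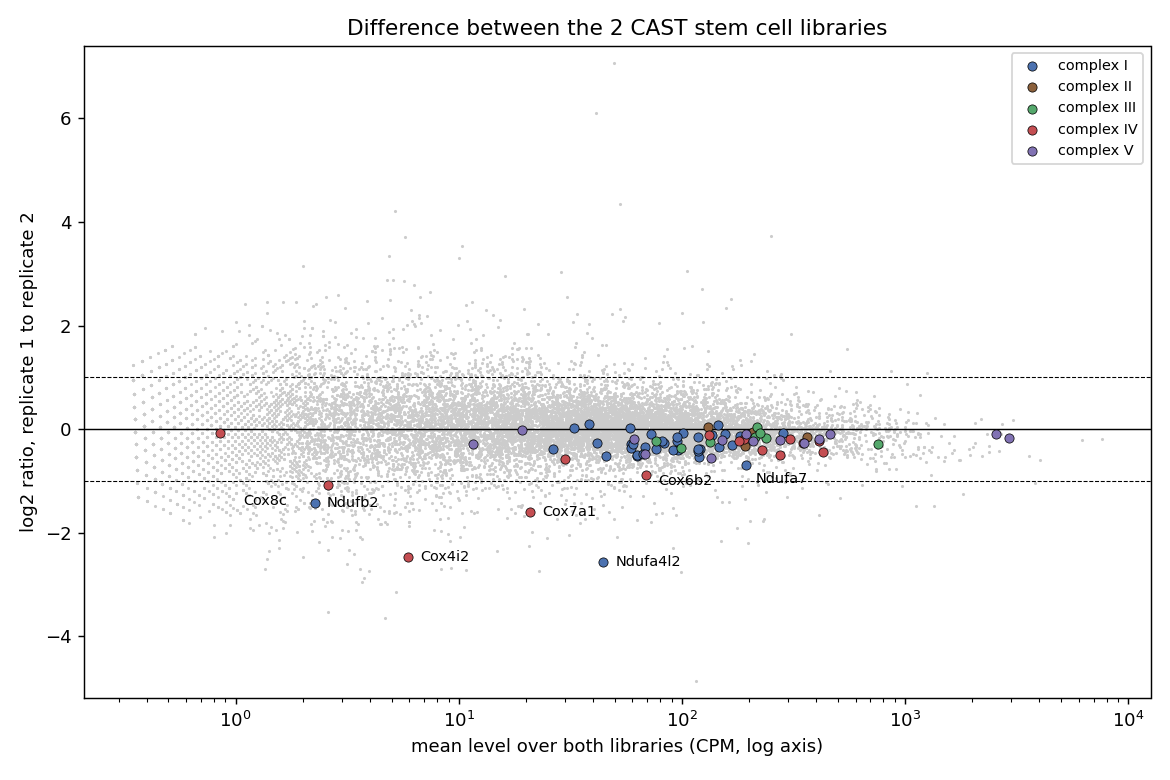
Log2 ratio of replicate 1 to replicate 2 (vertical) against mean level in CPM (horizontal, log axis) for all 13824 genes tested (gray) and the 78 members tested, colored by complex, with dashed lines at 2-fold. Members of all complexes lie close together just below 0, and Ndufa4l2, Cox4i2, Cox7a1, Ndufb2 and Cox8c lie below the lower dashed line.

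Ratios were also set beside those of other genes of like transcript length, with no test of the difference. The median longest transcript was 983 bases in members and 3071 in all protein-coding genes of the table. Of 445 other protein-coding genes with transcripts of up to 1000 bases, the median ratio was −0.27, and for the 40 members of that length it was −0.28. Between 1001 and 2000 bases it was −0.17 in 2123 other genes and −0.22 in 23 members, and between 2001 and 4000 bases −0.02 in 5419 other genes and −0.22 in 13 members. Over 4000 bases it was 0.15 in 5052 other genes, whereas the members of that length were only 2. With the comparison limited to genes at or above 100 TPM, 84.0% of 144 other genes of up to 1000 bases were higher in replicate 2, compared with 91.4% of 35 members. Between 1001 and 2000 bases at that level the medians were −0.20 in other genes and −0.22 in members, and between 2001 and 4000 bases −0.10 and −0.21. Ratios moved with transcript length in the other genes, and the part of length in the members' ratios was not tested.

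**Figure D4:**
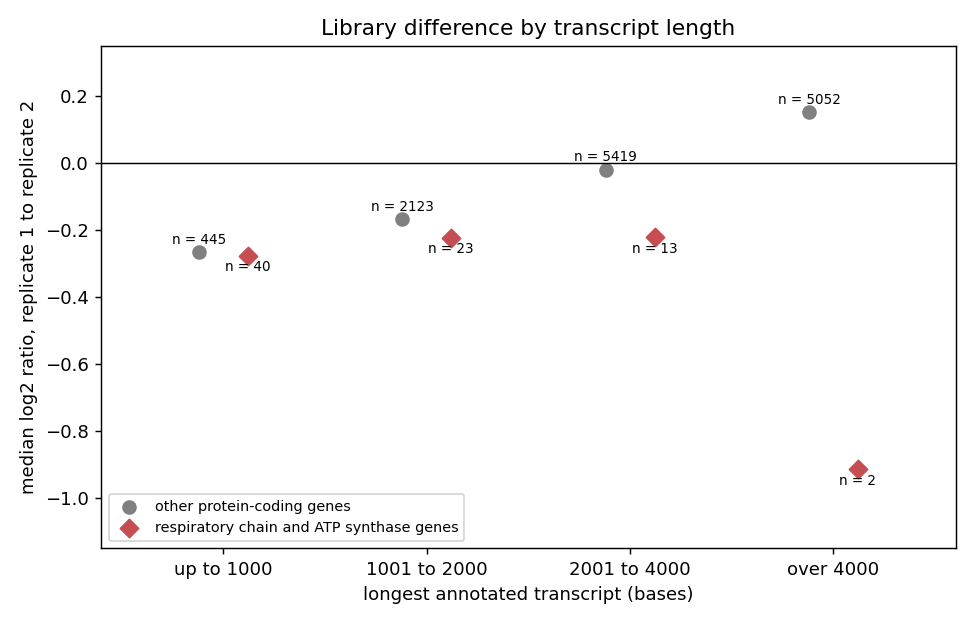
Median log2 ratio of replicate 1 to replicate 2 (vertical) by length of the longest annotated transcript in bases (horizontal) for other protein-coding genes (gray circles) and members (red diamonds), with the number of genes beside each point. Other genes run from −0.27 in the shortest class to 0.15 in the longest, and the members lie near −0.28 to −0.22 in the first 3 classes, with only 2 members in the last.

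The largest gaps were at alternative isoforms. Ndufa4l2 had 187 counts in replicate 1 and 1043 in replicate 2, or 36.7 and 200 TPM, and was 6.12-fold higher in replicate 2 (95% counting interval 5.23 to 7.19, log2 ratio −2.57). Its partner Ndufa4 had 2210 and 2503 counts, so the Ndufa4 level was 9.54 times that of Ndufa4l2 in replicate 1 and 1.94 times in replicate 2 (18.1 and 3.67 times by principal transcript length). Cox4i2, the form of subunit 4 known from lung and from low oxygen, at chr2:152754173-152765037, had 22 and 142 counts and was 7.08-fold higher in replicate 2 (4.50 to 11.7, log2 ratio −2.47). Both genes were low in replicate 1 and several times higher in replicate 2, whereas the common forms Ndufa4 and Cox4i1 had log2 ratios of −0.31 and −0.23. Folds printed here are of CPM with TMM factors and no pseudocount, and their intervals cover counting error only.

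Cox7a1 had 150 and 430 counts and was 3.15-fold higher in replicate 2 (2.61 to 3.81), and Cox7a2 had 356 and 486 counts (1.50-fold, 1.30 to 1.72). Cox6b2 had 715 and 1216 counts and was 1.87-fold higher in replicate 2 (1.70 to 2.05), a log2 ratio of −0.89 that did not reach 2-fold. Cox6b1 beside it had 1879 and 1861 counts, a log2 ratio of −0.12. Cox8c had 22 and 50 counts (2.49-fold, 1.48 to 4.32). Taken as alternative isoforms were Cox4i2, Cox6a2, Cox6b2, Cox7a1, Cox8b, Cox8c and Ndufa4l2. The 6 of them tested had a median log2 ratio of −1.34, and 4 were at least 2-fold higher in replicate 2, beside 4.13% of all genes. Atp5g2, the minor gene of its pair, had a ratio of −0.29, and with it the median was −1.08. With Cox8b, the 7 alternative isoforms summed to 76.8 CPM in replicate 1 and 211 CPM in replicate 2, and without them 72 members had a median of −0.23 with 1 gene, Ndufb2, past 2-fold.

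Ndufb2, at chr6:39592574-39603382, an accessory subunit of complex I, was 3.51-fold higher in replicate 2 (1.93 to 6.75), on 15 and 48 counts. Of its exonic bases 7.94% overlap another annotated gene. After these, Ndufa7 had the largest ratio, −0.69, with 2204 and 3239 counts (1.61-fold, 1.53 to 1.70). At the other end, Ndufb3 had 582 and 495 counts (0.10), Ndufs1 2190 and 1895 (0.07), Sdhb 1962 and 1733 (0.05), Uqcrfs1 3229 and 2868 (0.04), and Ndufb6 487 and 437 (0.02). Counting intervals for these 5 ratios all include no difference. Apart from the alternative isoforms and Ndufb2, the 71 remaining members had ratios between −0.69 and 0.10.

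Marker genes of other kinds moved between the same libraries. From the list of hypoxia response genes, Adm and Bnip3 were not analysed here. All 6 others were higher in replicate 2, beside 49.6% of all genes. At least 2-fold higher were 3, beside 4.13%: Ankrd37 with 68 and 345 counts, Ndrg1 with 812 and 3330, and Vegfa with 1554 and 4857. The 6 genes summed to 368 CPM in replicate 1 and 932 CPM in replicate 2, in the direction of Ndufa4l2 and Cox4i2. A list of 7 muscle genes summed to 23.2 and 45.7 CPM, nearly all of it Actn2 with 282 and 571 counts, beside the muscle form Cox7a1, whereas the muscle forms Cox6a2 and Cox8b had 12 and 12 and 2 and 0 counts. Of the 6 muscle genes tested 3 were higher in each library, and Mb had 0 and 2 counts. A list of 7 germ cell genes summed to 462 and 914 CPM, nearly all of it Dazl, with Pgk2 and Tnp1 at 0 in both libraries, beside Cox6b2 and Cox8c. The 8 neuron genes summed to 241 and 255 CPM, with Syt1 at 0, Elavl3 higher in replicate 2 (288 and 1129 counts), and Tubb3 (1174 and 607) and Map2 (111 and 56) higher in replicate 1. Of the 11 feeder markers tested, 9 were higher in replicate 1 and 2, Dcn and Pdgfrb, in replicate 2. The part of these in the members' ratios was not tested.

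Other genes of the pathway were compared in the same way. Of 41 assembly factors tested, which help build the complexes without staying in them, 22 were higher in replicate 2, beside 49.6% of all genes, none was 2-fold apart, beside 9.11%, and the median ratio was −0.04. With TPM scaling 17 were higher in replicate 2, beside 35.2% of all genes, and the median turned to 0.12. Coa7 (0.83) and Cox17 (−0.79), both acting on complex IV, were the extremes, and Sco2 was listed at 0 in both libraries. Of 5 electron carriers, with Cycs not analysed here, none was 2-fold apart, beside 9.11% of all genes. Cyc1, cytochrome c1 of complex III, which the symbol rule leaves out, had 6146 and 5656 counts (−0.01). The median of these carriers was −0.01 with TMM factors and 0.15 with TPM scaling. Of 10 regulators tested, 2 were higher in replicate 2, Nrf1 (−0.41) and Gabpa (−0.27), beside 49.6% of all genes. The other 8 were higher in replicate 1, among them Gabpb1 (0.07), Esrra (0.09), Tfam (0.17) and Pprc1 (0.35). The median of the regulators was 0.10 with TMM factors and 0.26 with TPM scaling. Ppargc1b had 666 and 328 counts (0.87), and Ppargc1a was listed at 0 in both libraries. Atpif1, the inhibitor of ATP synthase running in reverse, had 1049 and 1333 counts (−0.48). Of the protein-coding genes of the mitochondrial genome, mt-Nd5 had 17364 and 7284 counts (1.12) and mt-Nd6 had 8656 and 5890 (0.42), both higher in replicate 1, and mt-Cytb, a gene that every cell uses, was listed at 0, so a listed 0 in this table may not limit a level. The other 10 were not analysed here.

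How well reads could be assigned was described from the annotation. The members lie on 19 chromosomes, with at most 9 on 1 chromosome and 3 on the X. In 51 of 79 members no 75-base stretch of the longest transcript occurred in another gene. In the other 28 the share was at most 35.2%, in Ndufb4. Shorter transcripts of the members were not searched. In 28 members some exonic bases overlap another gene, and in 3 at least 25%: Atp5o (47.9%), Ndufb6 (39.0%) and Ndufa13 (30.0%). Values of these 3 are uncertain, since the strand setting used in counting is not given in the sources used here. Neither stretch nor overlap was found in 43 members.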

How the data were processed

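RNA of 2 CAST induced pluripotent stem cell libraries was sequenced as paired reads after poly-A selection. The authors deposited a table of raw gene counts, whole numbers with no normalization. The methods name STAR with the CAST/EiJ genome and multi-mapping reads discarded, whereas the submitters' processing notes name TopHat2 2.1.1, SAMtools, HTSeq and GRCm38/mm10. Which of these made the table is not settled, and how it treated multi-mapping reads therefore is not either. Another 7 columns of per-sample values matched no listed sample and were not used.

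From the counts, CPM, TPM (longest GENCODE M21 transcript) and log2 ratios with a pseudocount of 0.5 CPM and TMM factors (edgeR 4.0.16) were computed for genes with at least 10 counts over both libraries. No count test was run, since 1 group was analysed. DESeq2 1.42.0 gave alternative size factors. The ratio formula was also tried on simulated counts. That run used library totals in place of TMM factors and large changes only. It therefore does not check the scaling or the small ratios reported here. Counting intervals are 95% exact binomial for folds and Wilson for shares. Members and lists were chosen with earlier results of these data known. Genes named are the 3 highest and 3 lowest by TPM per complex, those with 3 or fewer counts in a library, the paralog families and the 5 largest ratios each way among genes of at least 5 CPM. Others, such as Ndufb7, Cox6c and list members, were named after their values were seen, and so was the ratio of Ndufb2. The value of 1 member, counted in all totals, is not reported here. Whether the replicates are separate cultures is not settled by the sources, so their spread may be technical.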

Additional observations from a re-analysis of the deposited data

How the results depend on the processing

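No paired analysis was possible because a single group, CAST, entered the analysis and has no partner group to pair with. Alternatives with TPM scaling, principal transcript lengths or members without alternative isoforms were chosen after seeing the data. Median TPM of all members and of complexes I to V became 292, 179, 282, 446, 464 and 548 with principal transcript lengths. Without rescaling the medians were 101, 73.8, 116, 158, 111 and 137 CPM per kilobase, another unit. With the union of exons as length, complexes II, III and V had 280, 498 and 368 TPM. Median log2 ratios of all members and complexes I to V became −0.20, −0.25, −0.047, −0.15, −0.34 and −0.15 with library totals, and −0.094, −0.15, 0.059, −0.041, −0.24 and −0.040 with TPM scaling, which reversed complex II. The first shifted the ratios of all genes by 0.06 and the second by about as much as the all-gene median of 0.16, by construction. The median of all members was −0.23 without alternative isoforms, and that of complex IV −0.34 with at least 1 count, which adds Cox8b. Members at least 2-fold apart numbered 3 with a pseudocount of 2 CPM, 3 at a mean of at least 5 CPM and 1 without alternative isoforms, instead of 5. The first of these was 3.85% of members beside 3.91% of all genes, the second 4% beside 5.46%. With TPM scaling it was 4 members, or 5.13% beside 10.1%. Family shares became 99.7% (Cox6a1), 75.5% (Cox6b1) and 96.8% (Atp5g3) with the union of exons, and 99.8% (Cox6a1) and 97.6% (Atp5g3) with principal transcripts. Shares of counts moved by less than the SD without Cox7a2l, and with counts of the mitochondrial genome left out of the total. Leaving out 1 of the 2 libraries moves a share by less than the SD whatever the data, so it shows no stability. Depth limits Cox8b, Cox6a2, Cox8c, Cox4i2 and Ndufb2, each with at most 142 counts in a library.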
